A study of Mus musculus with 4 samples.

Results

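The genes described here encode the proteins of the cytosolic ribosome. They were taken by symbol from a table of raw RNA-seq counts: every Rpl or Rps symbol with a number and at most a short letter or paralog ending, plus Rpsa, Rplp0, Rplp1 and Rplp2. This rule gave 87 of the 25239 genes in the table, and it used no measured value. Of the 87, 32 encode proteins of the small subunit, 49 proteins of the large subunit and 3 the stalk of the large subunit. The rule also took 2 genes that are annotated as pseudogenes, Rpl32l and Rps4l, and Rps6kl1, a kinase-like gene that encodes no ribosomal protein. A filter on low counts kept 85 of the 87 for testing, among 15522 genes in all. The other two, Rpl3l and Rpl10l, had 0 counts in all 4 libraries, against a floor of 3 counts that corresponds to 0.0380 to 0.0449 CPM (counts scaled to a library of fixed size).

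A ribosome is built from ribosomal RNA and one copy of most of these proteins, with small acidic proteins forming the stalk that recruits translation factors to the large subunit. The messenger RNAs of nearly all of them begin with a run of C and T bases, the terminal oligopyrimidine (TOP) motif, through which their translation follows mTOR activity, and their genes are usually transcribed at high and even levels. Chondrocytes build cartilage matrix and export large amounts of collagen and proteoglycan and so rely on sustained translation. Most ribosomal protein genes in mammals have processed pseudogenes, intronless copies of their messenger RNA that were inserted elsewhere in the genome, and reads of gene and copy can be hard to tell apart.

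RNA-seq of poly(A) RNA was made from primary mouse chondrocytes in 2 groups of 2 libraries. Control cells came from Tiki2 fl/fl mice, in which the gene for Tiki2 (symbol Trabd2b), a membrane protease that inactivates Wnt ligands, is flanked by recombination sites. The conditional knockout (cKO) cells came from Tiki2 fl/fl mice that also carry Col2a1-Cre/ERT, a Cre recombinase that is driven by the promoter of a cartilage collagen and switched on by tamoxifen. The cells of all 4 libraries received 4-hydroxytamoxifen. Cre was thus present in the cKO group alone, so loss of Tiki2 and presence of the recombinase cannot be told apart. The labels give no age. Nor do they state that the replicates are different animals or different cultures, and a p-value here reflects how far these libraries differ, which may be technical.

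Total counts lay between 66750140 and 78873054. Trabd2b had 28513 and 31314 counts in controls and 22643 and 29473 in cKO. Its log2 fold change, -0.38 ± 0.11 (SE), did not pass the edgeR test (adjusted p = 0.148). It passed by DESeq2 (-0.38, adjusted p = 0.00713) and by edgeR without cKO replicate 2 (-0.54, adjusted p = 0.027). Control replicate 1 stood apart from the other libraries. Xist, which is transcribed from the inactive X of females, had 112185 counts there and 36 to 171 elsewhere. Ddx3y on the Y chromosome had 0 counts there and 11073 to 12085 elsewhere. By both genes control replicate 1 reads as female and the other libraries as male. Sex and group are thus partly confounded, and an effect of sex was not tested. Without control replicate 1, 10 of the 85 tested genes described here turned direction, and 65 had a log2 fold change below 0. Values without this library are given below for genes whose fold change is printed and turned or moved by over 1.5 times. Marker sums are in CPM of total count. The 8 chondrocyte markers were present in all 4 libraries and summed to 22216 and 26155 in controls and 12611 and 9169 in cKO. By edgeR 7 of the 8 were called lower, where 0.908% of all genes tested were. Markers of other cell types gave no call. Not all could be tested: 3 of 6 were for macrophages, 3 of 4 for osteoclasts and for Schwann cells, 2 of 5 for endothelial and 1 of 4 for erythroid cells. Summed CPM of the 8 adipocyte markers was 291 and 296 in controls and 391 and 616 in cKO. That of the 4 osteoclast markers was 469 and 460 in controls and 430 and 392 in cKO. Both were without overlap. By total count, both cKO libraries were above both controls for 35% of all genes tested and below both for 16.7%. Over the 4 libraries summed CPM ran from 4.67 to 47.8 for skeletal muscle, 10.9 to 16.5 for macrophages and 2.64 to 3.46 for Schwann cells, and stayed under 1 for endothelial and erythroid cells. Emcn, Sox10, Hba-a1 and Hbb-bs were at 0. The part of these differences in the results below was not tested, and in bulk RNA fewer cells of a type and less RNA per cell cannot be told apart.

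Copies of the ribosomal protein genes matter for what the counts mean. In the mouse annotation (GENCODE M21, genome build mm10), 79 of the 87 genes had at least 1 annotated pseudogene copy that matched their transcript at 95% identity or more over at least 100 bases. There were 626 such copies in all, with the most for Rpl21 (61), Rpl7a (39), Rps2 (32) and Rpl29 (31). Only 18 of the 626 have a row of their own in the count table. The sequences below are shown because they are all that separates the coding sequence of 2 genes from a near-identical copy that has a row. Each is a stretch of coding sequence, 5′ to 3′, with the base that differs in capitals.

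Rpl26, first difference: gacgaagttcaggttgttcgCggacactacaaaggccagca
Gm15772, first difference: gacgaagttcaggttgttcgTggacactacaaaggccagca
Rpl26, other difference: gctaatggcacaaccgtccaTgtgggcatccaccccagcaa
Gm15772, other difference: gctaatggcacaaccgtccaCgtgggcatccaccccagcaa
Rpl30: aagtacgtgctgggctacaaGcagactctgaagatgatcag
Gm12191: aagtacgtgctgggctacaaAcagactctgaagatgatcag

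Rpl26 (chr11:68901583-68906989, plus strand) and its processed pseudogene Gm15772 (chr5:3236431-3236868, plus strand) match at 99.5% over 438 bases. Counted from the A of the start codon, the copy carries C177T and T288C. Rpl30 (chr15:34440505-34443640, minus strand) and its processed pseudogene Gm12191 (chr11:49678710-49679057, minus strand) match at 99.7% over 348 bases, with the single difference G96A. All 3 differences fall at the third base of a codon. A read of spliced RNA within the matched stretch that spans none of these positions has the same letters for gene and copy. This holds across a splice junction too, since the copies are intronless copies of the messenger RNA.

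Expression of the ribosomal protein genes differed little between the groups, and no single gene passed the test. By the edgeR quasi-likelihood test with Benjamini-Hochberg adjustment over all 15522 genes, 0 of 85 were called higher (0.393% of all genes tested were) and 0 were called lower (0.908%), against 1.3% of all genes called in either direction. The lowest adjusted p, 0.0954, belonged to Rpl10. At an unadjusted p under 0.05, 18 of 85 (21.2%) were lower and 2 (2.35%) were higher in cKO, where 8.88% and 8.36% of all genes tested were. limma-voom called 0 of 85 (2.15% of all genes tested), and DESeq2 called 3 lower, among them Rpl10 (4.16% of all genes tested), and 0 higher (3.38%).

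The fold changes lay close together and mostly on one side of 0. The median log2 fold change (cKO over control) of the 85 was -0.11, with an interquartile range of -0.15 to -0.07, against a median of 0.00 over all genes tested. Of the 85, 73 (85.9%) had a log2 fold change below 0, as did 49.6% of all genes, and 72 (84.7%) lay within 0.2 of 0, as did 58.6% of all genes. Both cKO libraries were below both controls for 58 genes (68.2%, against 24.9% of all genes tested), and above both for 3 (3.53%, against 24.9%), which were Rpl26, Rpl36 and Rps27l. Among the 2039 tested genes with a mean of at least 100 CPM, a level that 64 of these genes reach, the median was -0.01 and both cKO libraries were below both controls for 35.1%. For the 64 the corresponding values were -0.12 and 82.8%.

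**Figure D1:**
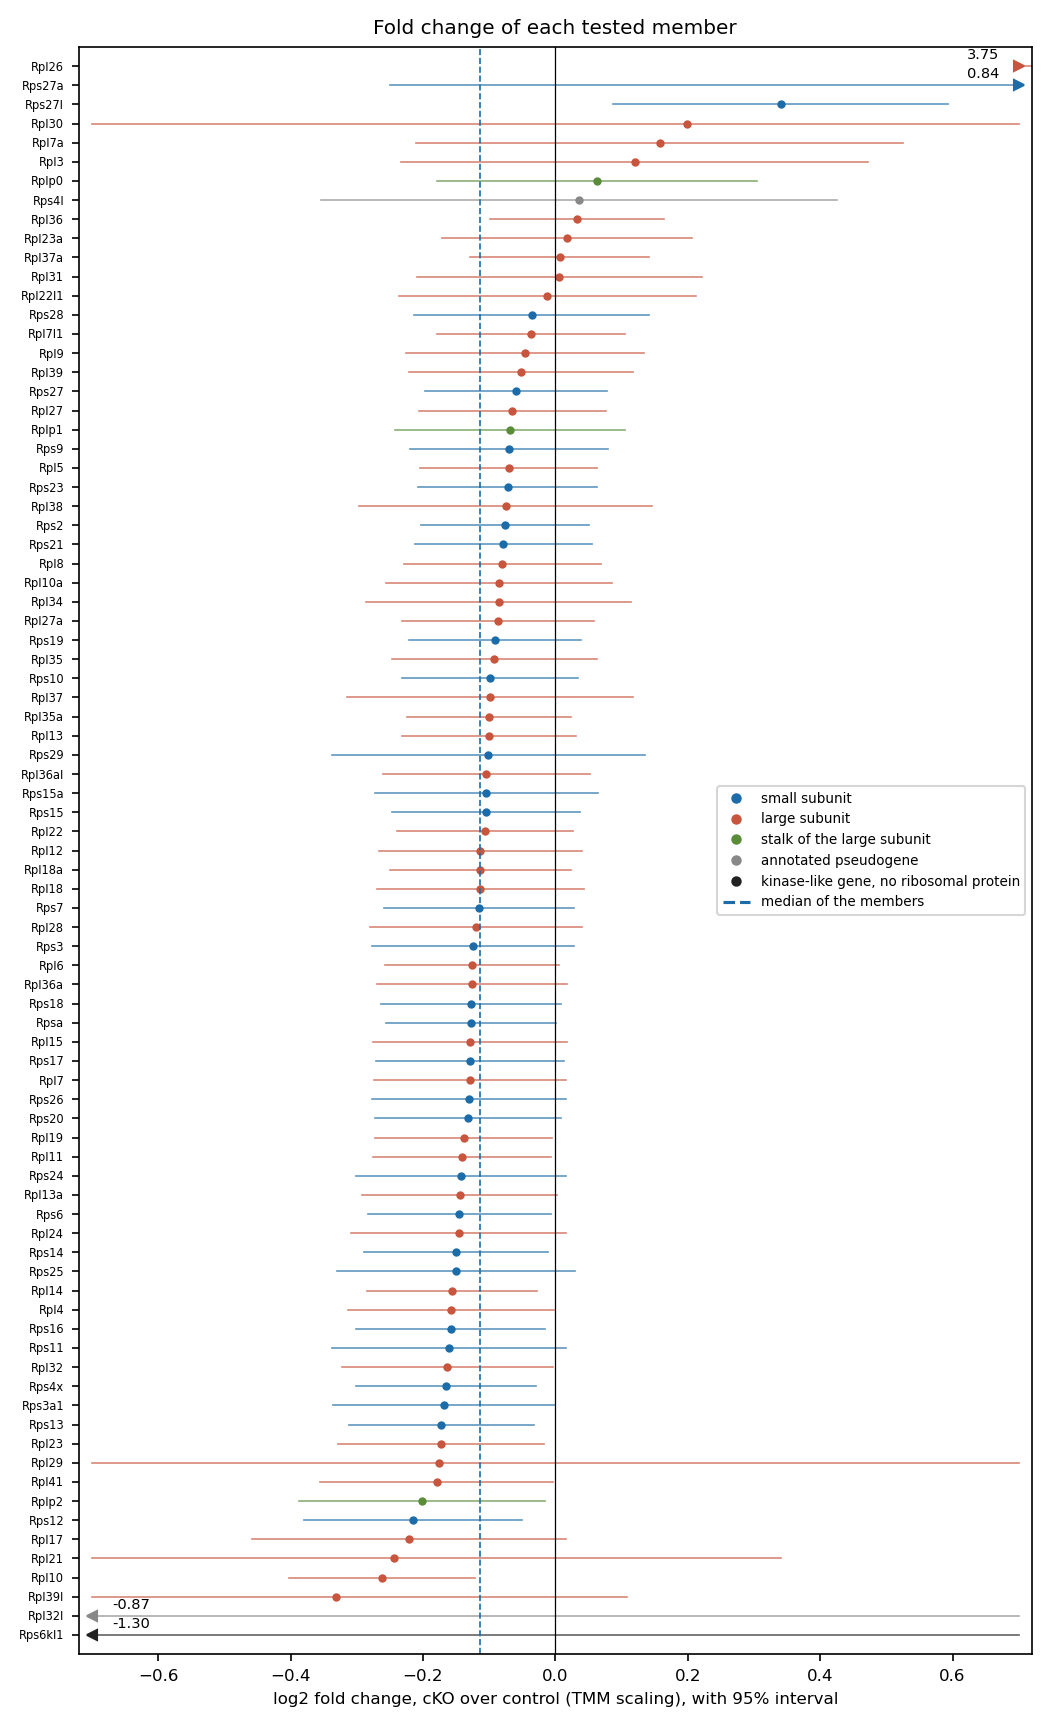
log2 fold change of 83 of the 85 tested genes (points, coloured by class) with 95% intervals (lines, drawn to 0.7 on either side, with arrowheads and printed values for points beyond). The dashed line is the median of the 85, -0.11, and most points lie between it and 0 or just below it, while Rpl26, Rps27a and Rps27l stand out above.

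The size of this difference depended on the scaling between libraries. Scaled by total count alone, without TMM factors, all log2 fold changes moved up by about the same amount: the median over all genes became 0.07, and that of the ribosomal protein genes -0.05. The distance between both medians was -0.12 either way. By total count, 67 of the 85 genes had a log2 fold change below 0, as did 37.4% of all genes, and 18 were above 0. At an unadjusted p under 0.05, 3 genes were then lower (5.74% of all genes tested) and 2 higher (13.5%). Both cKO libraries were then below both controls for 34 genes (40.0%, against 16.7% of all genes tested) and above both for 4 (4.71%, against 35.0%). With control replicate 1 left out, the median became -0.07, and 3 genes in place of 18 were lower at an unadjusted p under 0.05 (6.67% of all genes tested in that fit).

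The 4 libraries formed a series of steps. Over the 82 tested genes that encode ribosomal proteins, the median log2 deviation of a library from each gene's own mean was 0.09 in control replicate 1, 0.02 in control replicate 2, -0.03 in cKO replicate 1 and -0.08 in cKO replicate 2. Control replicate 1 was the highest library for 69 of the 82, and cKO replicate 2 the lowest for 51. By total count the medians were 0.06, -0.01, -0.01 and -0.03, so control replicate 2 and cKO replicate 1 were not separated and control replicate 1 stood above the other libraries. The median range from the lowest to the highest library was 1.14-fold, and 72 of the 82 genes ranged by under 1.3-fold. Ranges of 1.5-fold or more were found for Rpl26 (28.7-fold), Rpl30 (3.63-fold), Rps27a (3.03-fold), Rpl29 (2.17-fold) and Rpl21 (1.78-fold).

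**Figure D2:**
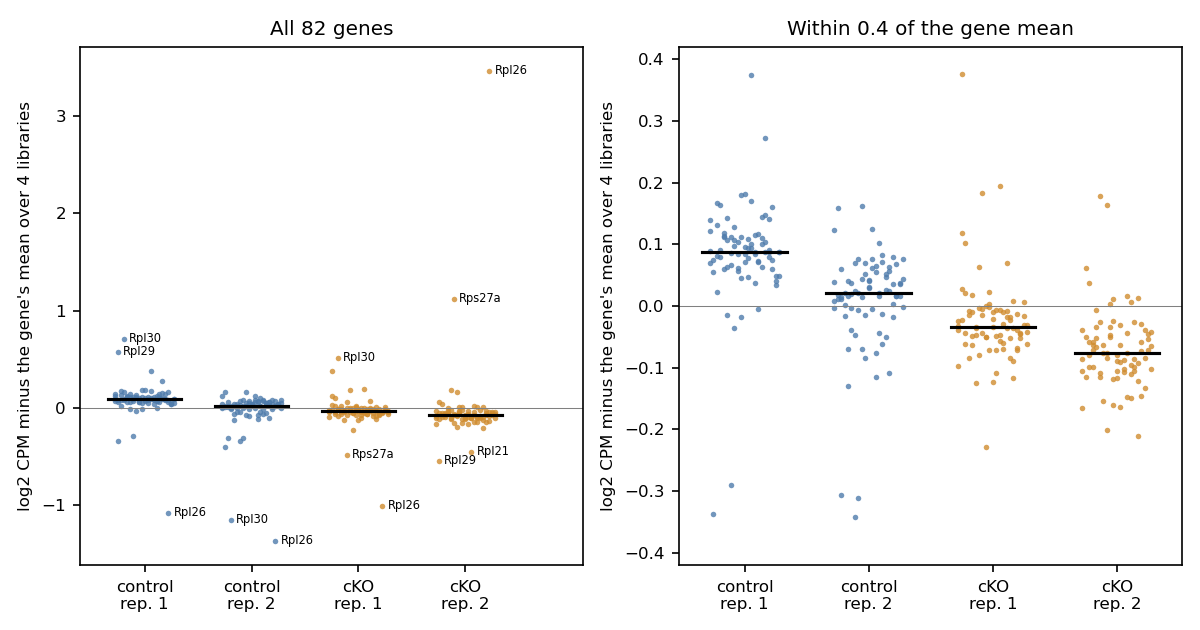
log2 CPM of each of the 82 coding genes minus that gene's mean over the 4 libraries, by library, with all genes on the left and those within 0.4 on the right. Black lines are medians, 0.09, 0.02, -0.03 and -0.08 from left to right, and the named points are single genes far from the rest of their library.

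Together the 87 genes took 2.44% and 2.31% of all counts in controls and 2.33% and 2.33% in cKO, a mean of 2.38% ± 0.0907 against 2.33% ± 0.00152 (SD, n = 2). Both cKO values lay between both control values. The difference of -0.0484 percentage points gave an exact two-sided permutation p = 1, where the smallest p this design allows is 0.333, and without control replicate 1 it was 0.0157. Counted outside the 10 highest genes of each library, the share was 2.75%, 2.62%, 2.60% and 2.57%, and the groups no longer overlapped (exact permutation p = 0.333). The small subunit genes took 0.996% and 0.957% in controls and 0.941% and 0.934% in cKO (exact permutation p = 0.333), without overlap. The large subunit genes took 1.25% and 1.17% against 1.20% and 1.18%, and the stalk genes 0.197% and 0.187% against 0.188% and 0.215%, and in both classes the groups overlapped.

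Among the small subunit genes, 30 of 32 had a log2 fold change below 0, with a median of -0.13 and 9 below an unadjusted p of 0.05. Rps12, a small subunit protein, measured 205 and 185 CPM in controls against 166 and 170 CPM in cKO. Its groups did not overlap, and its log2 fold change was -0.21 ± 0.07 (edgeR adjusted p = 0.185; DESeq2 adjusted p = 0.0802), or -0.14 without control replicate 1. Rps6, the classical substrate of the S6 kinases downstream of mTOR, measured 593 and 593 CPM in controls against 550 and 522 CPM in cKO, a log2 fold change of -0.14 ± 0.06 (adjusted p = 0.273). Both Rps6 controls were nearly equal and above both cKO libraries.

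The other two small subunit genes were above 0. Rps27l, a paralog of Rps27 known as a transcriptional target of p53, measured 42.5 and 35.1 CPM in controls against 49.4 and 48.7 CPM in cKO. The cKO libraries were nearly equal and both above the controls, which differed 1.22-fold from each other, and the log2 fold change of 0.34 ± 0.10 did not pass the test (edgeR adjusted p = 0.174; DESeq2 adjusted p = 0.0621). It was 0.40 by total count, 0.49 without control replicate 1 and 0.21 without control replicate 2. Its parent gene Rps27, which encodes the standard form of the protein, measured 98.8 and 94.3 CPM against 92.4 and 92.9 CPM, a log2 fold change of -0.06 ± 0.06 that was -0.026 without control replicate 1. Rps27a, whose product is a fusion of ubiquitin with a small subunit protein, measured 47.7 and 46.0 CPM in controls, and 41.7 CPM in cKO replicate 1 but 126 CPM in cKO replicate 2. Its log2 fold change of 0.84 ± 0.45 (adjusted p = 0.41) rested on that last library, and was -0.17 without it.

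Of the 47 tested large subunit genes, 39 had a log2 fold change below 0, with a median of -0.10 and 8 below an unadjusted p of 0.05. Rpl10, which joins the large subunit late in its maturation in the cytoplasm, measured 423 and 418.5 CPM in controls against 359 and 343 CPM in cKO. The controls lay close together and well above both cKO libraries. Its log2 fold change of -0.26 ± 0.06 (95% interval -0.40 to -0.12) is a 1.20-fold higher level in controls, with an edgeR adjusted p of 0.0954 and a DESeq2 adjusted p of 0.000981, and was -0.20 by total count and -0.25 without control replicate 1. Rpl41, which encodes the shortest of these proteins, measured 414 and 375 CPM against 359 and 338 CPM (log2 fold change -0.18 ± 0.07, edgeR adjusted p = 0.283). Its log2 fold change was -0.11 without control replicate 1. Rpl19 measured 470 and 465 CPM against 431 and 418 CPM (-0.14 ± 0.06), again without overlap.

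Rpl11, which together with Rpl5 binds Mdm2 when ribosome assembly is disturbed, had a log2 fold change of -0.14 ± 0.06 (adjusted p = 0.269), and Rpl5 one of -0.07 ± 0.06. Rpl17, near the exit of the peptide tunnel, measured 48.1 and 51.5 CPM in controls against 39.3 and 46.2 CPM in cKO (-0.22 ± 0.10, adjusted p = 0.324), which became -0.11 without cKO replicate 1 and -0.34 without cKO replicate 2. Rpl21 measured 45.7 and 32.6 CPM in controls against 40.3 and 25.7 CPM in cKO, so replicates differed more than groups, and its log2 fold change of -0.24 became 0.02 without control replicate 1 and 0.05 without cKO replicate 2.

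Several large subunit genes with a log2 fold change above 0 had uneven replicates, as had Rpl21 and Rpl29 with one below 0. Rpl7a measured 223 CPM in control replicate 1 and 314, 305 and 294 CPM in the other libraries, and its log2 fold change of 0.16 was -0.07 without that control. Rpl3, whose product reaches towards the site of peptide bond formation, measured 664 CPM in control replicate 1, 478 CPM in control replicate 2, and 635 and 606 CPM in cKO. Its log2 fold change of 0.12 was 0.38 without control replicate 1 and -0.10 without control replicate 2. Rpl23a measured 371 and 324 CPM in controls against 351 and 352 CPM in cKO, and its log2 fold change of 0.02 was 0.12 without control replicate 1 and -0.08 without control replicate 2. Rpl36 was the only large subunit gene besides Rpl26 with both cKO libraries above both controls, by a small margin: 82.2 and 82.4 CPM in controls against 84.5 and 83.8 CPM in cKO.

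The 3 stalk genes did not move together. Rplp0, the base of the stalk, measured 1251 and 1230 CPM in controls, 1160 CPM in cKO replicate 1 and 1431 CPM in cKO replicate 2, which placed the cKO libraries on either side of the controls (log2 fold change 0.06 ± 0.10, or -0.10 without cKO replicate 2). Its partners Rplp1 and Rplp2 form the flexible tip. Rplp1 measured 590 and 529 CPM against 545 and 523 CPM (-0.07 ± 0.07), a direction that turned without control replicate 1 (0.01). Rplp2 measured 165 and 160 CPM against 151 and 132 CPM (-0.20 ± 0.08, adjusted p = 0.256), or -0.11 without cKO replicate 2 and -0.30 without cKO replicate 1. Rplp2 was the stalk gene whose groups did not overlap.

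Replicates of a group differed by over 2-fold, in CPM of total count, for 4 of the 87 genes (4.60%, against 11.9% of all genes tested): Rpl26, Rpl30, Rps27a and Rps6kl1. Among genes with a mean of at least 10 CPM, where counting noise is small, they were 3 of 82 (3.66%), against 49 of 9467 (0.518%) over all genes. Just under the limit lay Rpl29, with 8638 and 5083 counts in controls and 8961 and 4955 in cKO, which is 1.97-fold and 1.87-fold. Its log2 fold change of -0.18 ± 0.38 turned to 0.39 without control replicate 1 and to 0.21 without cKO replicate 2. Rps6kl1, the kinase-like gene, had 14 and 46 counts in controls and 0 and 27 in cKO, too few for its spread to be read.

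Rpl26, a large subunit protein also known to bind p53 messenger RNA, had 379 and 356 counts in controls, 471 in cKO replicate 1 and 11026 in cKO replicate 2. Its copy Gm15772 had 18239, 19868 and 19555 counts in both controls and cKO replicate 1 and 9107 in cKO replicate 2. High counts of the gene and low counts of the copy thus met in the same library. Summed, gene and copy gave 18618, 20224, 20026 and 20133 counts, and Rpl26 held 2.04%, 1.76% and 2.35% of that sum in 3 libraries and 54.8% in cKO replicate 2. Taken alone, Rpl26 was 3.75 ± 1.25 higher in cKO on the log2 scale (edgeR adjusted p = 0.201), and 0.21 higher without cKO replicate 2. The sum, an alternative added after seeing the data, measured 285 and 268 CPM in controls against 258 and 248 CPM in cKO. Its log2 fold change was -0.13 ± 0.06 (edgeR adjusted p = 0.365). That direction is the opposite of the gene's own and close to the median of the other ribosomal protein genes.

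Rpl30 had 8546 and 2715 counts in controls and 8855 and 6259 in cKO. Its copy Gm12191 had 2138 and 3115 counts in controls, 2788 in cKO replicate 1 and 0 in cKO replicate 2, and the copies Gm7429 and Gm5481 together never exceeded 11. Rpl30 held 79.9% and 46.5% of the sum in controls and 76.0% and 99.9% in cKO. Here the sum did not even out the replicates: it was 10695 and 5841 counts in controls and 11651 and 6266 in cKO, so controls still differed 2.11-fold and cKO libraries 1.95-fold. The log2 fold change was 0.20 ± 0.54 for the gene, which became -0.45 without control replicate 2 and 1.41 without control replicate 1, and -0.08 ± 0.41 for the sum. Of the 12 annotated copies of Rpl30, 3 have a row. Rps27a, with 3119 and 3472 counts in controls and 3237 and 10275 in cKO, has 10 annotated copies and none with a row, so no such sum could be made.

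**Figure D3:**
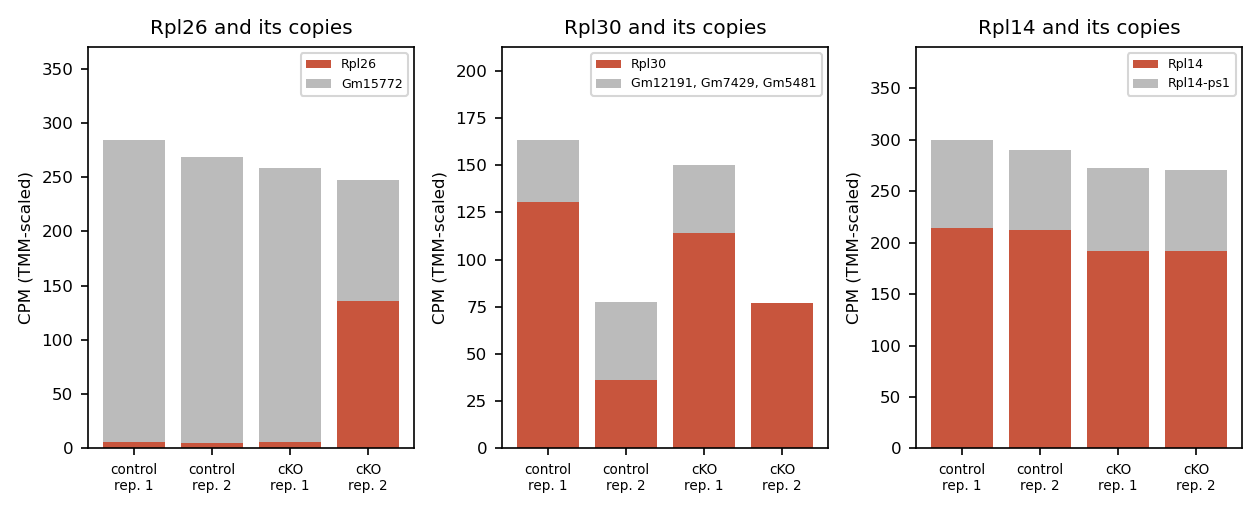
CPM of Rpl26, Rpl30 and Rpl14 (red) stacked with the CPM of their pseudogene copies that have a row (grey), by library. The Rpl26 stack runs from 285 to 248 CPM while its red part jumps in cKO replicate 2, the Rpl30 stack is low in control replicate 2 and cKO replicate 2, and the Rpl14 stack is split alike in all 4 libraries.

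Counts of other genes and their copies stood in a steadier ratio. Rpl14 held 71.5% and 73.2% of its sum with Rpl14-ps1 in controls and 70.3% and 70.9% in cKO. Rpl37 held 87.4% to 88.2% of its sum with Rpl37rt, and its own log2 fold change of -0.10 was 0.03 without control replicate 1. Rps6 held 93.4% to 94.2% of its sum with Rps6-ps4, which is 100% identical to it over 750 bases. Rpl34 held 84.0% of its sum with Rpl34-ps1 in control replicate 1 and 89.4% to 93.2% in the other libraries, and its own log2 fold change of -0.09 was 0.02 without cKO replicate 2. With each gene summed with its copies, 0 of 85 were called in either direction by edgeR, and the median log2 fold change was -0.12. Reads of the 608 copies without a row cannot be followed in this table.

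Paralogs with restricted or specialised expression were a small part of the whole. Rpl39l, a testis-enriched paralog of Rpl39, measured 6.47 and 5.57 CPM in controls against 4.94 and 4.63 CPM in cKO, without overlap (log2 fold change -0.33 ± 0.18, adjusted p = 0.421; -0.22 without control replicate 1). Rpl39 itself, on the X chromosome, measured 74.5 and 67.1 CPM against 68.4 and 68.3 CPM. Rpl22l1, a paralog of Rpl22, measured 21.6 and 19.7 CPM against 20.3 and 20.7 CPM (-0.01 ± 0.09), whereas Rpl22 had a log2 fold change of -0.11 ± 0.05. Rpl7l1, a paralog of Rpl7 that acts in ribosome assembly, had a log2 fold change of -0.04 ± 0.06, and Rpl36al, an intronless relative of Rpl36a, one of -0.10 ± 0.06. Without control replicate 1 the log2 fold change was 0.03 for Rpl39, 0.06 for Rpl22l1 and -0.05 for Rpl36al. Rpl3l, known from heart and skeletal muscle, and Rpl10l, known from testis, were the genes at 0 counts.

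Genes of the set lie on 19 chromosomes, with 14 on chromosome 7 and 4 on the X chromosome: Rpl10, Rpl36a, Rpl39 and Rps4x. Control replicate 1 is the library with high Xist, and its X-linked ribosomal protein genes were close to those of control replicate 2, at 1.02-fold for Rpl10, 1.05-fold for Rpl36a, 1.11-fold for Rpl39 and 1.03-fold for Rps4x. Rps4x, which has a Y-linked counterpart in humans but not in mice, measured 584 and 569.5 CPM in controls against 523 and 505 CPM in cKO (log2 fold change -0.16 ± 0.06, adjusted p = 0.209). Rpl36a had a log2 fold change of -0.13 ± 0.06. Of the annotated pseudogenes, Rps4l measured 31.3 and 27.7 CPM in controls against 25.4 and 35.0 CPM in cKO, with overlap (log2 fold change 0.04, or 0.13 without control replicate 1), and Rpl32l had 24 and 25 counts in controls and 19 and 11 in cKO.

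Levels differed widely between genes. The set includes paralogs of restricted expression, such as Rpl39l and Rpl22l1, and genes whose reads may be counted for a copy, such as Rpl26. Levels per length also depend on the annotated transcript. The part of each in this spread was not tested. Per kilobase of the shortest complete transcript that encodes the principal protein form, the 82 coding genes had a median of 340 CPM per kb, with an interquartile range of 209 to 477. The highest were Rplp1 (1096 CPM per kb), Rplp0 (934 CPM per kb) and Rpl41 (850 CPM per kb), and the highest of the small subunit were Rps2 (720 CPM per kb), Rps15 (656 CPM per kb) and Rps14 (649 CPM per kb). The stalk proteins Rplp1 and Rplp2 enter each ribosome in more than one copy, yet Rplp2 reached 361 CPM per kb, near the median. The lowest large subunit levels were those of Rpl39l (9.82 CPM per kb), Rpl22l1 (37.3 CPM per kb) and Rpl21 (40.1 CPM per kb), and the lowest small subunit levels those of Rps20 (55.9 CPM per kb), Rps27l (88.0 CPM per kb) and Rps27a (103 CPM per kb). The value of Rps20 rests on an annotated transcript of 3706 bases, far longer than the others. Rpl21 is also the gene with the most annotated copies. The median was 358 CPM per kb in the small and 305 CPM per kb in the large subunit.

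**Figure D4:**
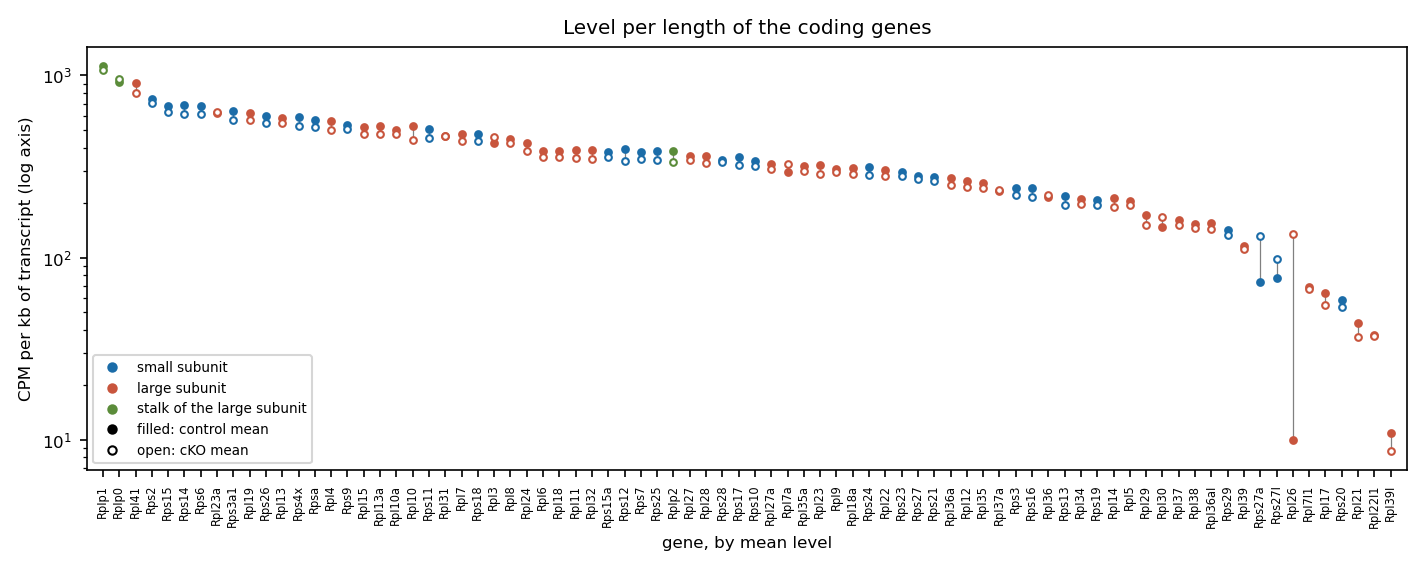
Mean level per length of 80 of the 82 coding genes on a log axis, in CPM per kb of transcript, ordered by their mean over 4 libraries (filled points controls, open points cKO, coloured by class). Levels run from 1096 CPM per kb for Rplp1 to 9.82 CPM per kb for Rpl39l, and control and cKO points lie apart most visibly for Rpl26, Rps27a, Rps27l and Rpl39l.

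What these genes share in sequence was read from RefSeq promoters (GRCm38.p6), 250 bases before to 50 after the annotated start, of which 64 of the genes could be matched. A run of at least 8 C or T bases on the coding strand, between 10 bases before and 50 after the start, was found in 42 of the 64 (65.6%), against 21.2% of all 32851 promoters. The letters CCGGAAG, the core bound by ETS factors, were found on either strand in 25 (39.1%, against 8.86% of all). The palindrome CTCGCGAG was in 6 (9.38%, against 0.919%), AAGATGGC, the core of the YY1 motif, in 5 (7.81%, against 2.75%), and TATAAA in 6 (9.38%, against 13.6%). Matches of different motifs can overlap, since CCGGAAG ends in the letters with which AAGATGGC begins. The windows of Rpl26 and Rps27l, from 50 bases before to 20 after the start, are shown with CCGGAAG and CTCGCGAG in capitals. Both genes had both cKO libraries above both controls, as had Rpl36, for which no promoter was matched. The fold change of Rpl26 came mostly from cKO replicate 2, and its direction reversed in the sum with Gm15772. CCGGAAG was also found in genes with both cKO libraries below both controls, such as Rpl19 and Rpl41. Any link between these letters and the fold changes was not tested.

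Rpl26, chr11:68901516-68901585, plus strand: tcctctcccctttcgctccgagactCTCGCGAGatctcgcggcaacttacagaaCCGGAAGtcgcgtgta
Rps27l, chr9:66946036-66946105, plus strand: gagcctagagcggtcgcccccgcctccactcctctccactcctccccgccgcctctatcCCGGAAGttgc

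Both windows hold CCGGAAG close to the start, and that of Rpl26 also the palindrome. Within the narrower stretch searched for C or T runs above, the longest run was 14 bases for Rpl26 and 7 bases for Rps27l. That stretch begins closer to the start than the printed windows and ends further past it. The C or T run at the upstream end of the printed Rpl26 window lies outside it and was not counted. In Rps27l a printed C or T run crosses its upstream edge, and only the part inside was counted. A match is a description of the letters and does not show that a factor binds there.

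Other genes of the translation machinery were read in lists that the rule did not use. For these lists and those below, the shares over all genes tested were 0.393% called higher and 0.908% called lower by edgeR. At an unadjusted p under 0.05 they were 8.36% and 8.88%. Both cKO libraries were below both controls for 24.9% of all genes tested. The 3 ribosomal protein genes with other names were close to the set, with log2 fold changes of -0.16 ± 0.05 for Fau, which encodes a fusion with a ubiquitin-like protein, and -0.12 ± 0.06 for Rack1, a scaffold on the small subunit (-0.07 without cKO replicate 2). All 3 had both cKO libraries below both controls, and 0 were called (1 was lower and 0 higher at an unadjusted p under 0.05). Of 22 other TOP messenger RNAs, which encode mostly translation factors, 0 were called (5 lower and 0 higher at an unadjusted p under 0.05), 21 were below 0, and the median was -0.12. By total count 6 of the 22 were above 0. Npm1, a nucleolar chaperone, measured 587 and 576 CPM in controls against 507 and 506 CPM in cKO (-0.20 ± 0.05, adjusted p = 0.137). Tpt1 (-0.15 ± 0.05), the elongation factor subunit Eef1b2 (-0.16 ± 0.06) and the snoRNA host gene Gas5 (-0.26 ± 0.09, or -0.14 without cKO replicate 2) did not pass either.

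Genes that act upstream of ribosome supply gave 0 calls by edgeR. Of 30 ribosome biogenesis factors, 20 were below 0 with a median of -0.07 (5 lower and 1 higher at an unadjusted p under 0.05). Ltv1, which helps to mature the small subunit, measured 50.8 and 48.1 CPM in controls against 36.5 and 35.7 CPM in cKO (-0.46 ± 0.07, adjusted p = 0.0519), just short of the threshold. Rrs1, Ncl and Nop56 had log2 fold changes of -0.26, -0.19 and -0.20. The 11 genes of RNA polymerase I, which makes the large ribosomal RNAs, had a median of 0.00 and none at an unadjusted p under 0.05 in either direction. The 17 regulators of ribosomal protein synthesis had a median of 0.01 (2 lower and 1 higher at an unadjusted p under 0.05). The 2 lower were the translation repressor Eif4ebp1 and Myc (-0.22 ± 0.08). Eif4ebp1 was 86.8 and 96.9 CPM in controls against 74.3 and 52.5 CPM in cKO (-0.53 ± 0.16, adjusted p = 0.165, or -0.30 without cKO replicate 2). The 1 higher was Mxd4 (0.18 ± 0.07). Mtor (0.13 ± 0.06) did not reach that limit (edgeR unadjusted p = 0.071). The 78 mitochondrial ribosomal protein genes, which serve a separate ribosome, had a median of -0.04, with 0 called (2 lower and 2 higher at an unadjusted p under 0.05), 53 below 0 and, by total count, 46 above 0. Of the 169 tested genes of these lists and the p53 genes, DESeq2 called 4 higher and 4 lower (3.38% and 4.16% of all genes tested). By limma-voom 3 were called higher and 1 lower (2.15% of all genes tested in either direction).

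Disturbed ribosome assembly is known to act on p53 through Mdm2, so 8 genes of that pathway were read as well. By edgeR 2 of the 8 were called higher, where 0.393% of all genes tested were. At an unadjusted p under 0.05, 4 were higher and 0 lower, against 8.36% and 8.88% of all genes tested. Of the 8, 6 had a log2 fold change above 0 and 2 below 0. The list was chosen with earlier results of these data known, so these shares are not an independent comparison. Whether ribosome assembly was disturbed, and what raised the genes that were higher, was not tested. Loss of Tiki2 and presence of Cre cannot be told apart here either. Eda2r, a death receptor induced by p53, measured 14.3 and 15.0 CPM in controls against 26.8 and 27.9 CPM in cKO (log2 fold change 0.90 ± 0.09, edgeR adjusted p = 0.0264). Ccng1, a cyclin induced by p53, measured 240 and 237 CPM in controls against 319.8 and 314 CPM in cKO (0.41 ± 0.06, edgeR adjusted p = 0.0373). Replicates of both genes were close together and the groups well apart. Phlda3 (0.42 ± 0.07, adjusted p = 0.0521) and Cdkn1a (0.31 ± 0.08, adjusted p = 0.115), a repressor of Akt and an inhibitor of the cell cycle, did not pass. Leaving out each library in turn gave log2 fold changes of 0.87 to 0.94 for Eda2r and 0.39 to 0.42 for Ccng1. With replicate number as a block, 0 of the related genes were called higher. That fit called 3 of all genes tested higher, against 61 in the main fit.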

How the data were processed

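Poly(A) RNA-seq of 4 libraries was analysed, 2 per group as the labels give them. The deposited values are raw counts, whole reads for each gene symbol in 1 table, which the authors did not scale. The table has 0 columns that match no sample. Per the submitters' processing notes, the tools were HISAT2 2.2.1, StringTie 2.1.7, Trim Galore 0.6.7 and FastQC 0.11.9, with no role or order, and the build was mm10. Not given in the sources used here are the counting tool, its use of strand, its annotation and its rule for reads with several matches.

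In R 4.3.3, edgeR 4.0.16 was used to filter genes (filterByExpr, minimum count 10). Counts were scaled by TMM factors (0.976 to 1.03) and tested over all 15522 genes with the quasi-likelihood test and Benjamini-Hochberg adjustment at 0.05, with no covariate. The biological coefficient of variation was 0.174. CPM are TMM-scaled unless total count is named. Replicate spread used CPM of total count and at least 10 counts in the higher replicate. Alternatives were DESeq2 1.42.0, limma-voom (limma 3.58.1), other scalings, no filter, counts divided by 4, a replicate block and leaving out each library. Scripts were tested on simulated data.

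Transcripts were compared with annotated pseudogenes by BLAST+ 2.17.0 (megablast). The 64 promoters come from RefSeq. The members and lists were chosen with earlier results of these data known. Genes named are Trabd2b, called members, the 6 highest and 6 lowest fold changes, members over 2-fold apart between replicates, listed paralogs, X-linked members, the 3 highest and lowest levels per subunit, rows that encode no ribosomal protein, and up to 4 genes per other list by p. Beyond these, Rps6, Rps12, Rps27, Rpl5, Rpl11, Rpl14, Rpl22, Rpl29, Rpl34, Rpl36, Rpl37 and the stalk genes were named after their values were seen. Values of some genes are not reported here. Intervals and floors cover counting error only where they rest on counts of 1 library, since PCR copies cannot be told from separate molecules.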

Additional observations from a re-analysis of the deposited data

How the results depend on the processing

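The median log2 fold change of the ribosomal protein genes stayed below 0 in all settings tried, from -0.15 without control replicate 2 to -0.049 by library sizes alone, and was -0.11 over the 77 genes whose replicates lie within 1.5-fold. The cause of the changes listed here was not tested. Called higher: 0 in every setting except without cKO replicate 1, where 2 were called (edgeR; leaving out a replicate gave 0 to 2, 1.95% of all genes in that fit), Rpl26 (log2 fold change 4.69) and Rps27a (1.43). Called lower: 0 except 3 by DESeq2. At an unadjusted p under 0.05, genes higher numbered 1 with the replicate block, by limma-voom and with copies summed, and 1 to 4 leaving out a replicate, against 2; genes lower numbered 3 by library sizes alone and 3 to 24 leaving out a replicate, against 18. Among the related genes, 2 were called higher, but 0 with the replicate block, 4 by DESeq2 and 0 to 3 leaving out a replicate; 0 were called lower, but 1 with counts divided by 4, 4 by DESeq2, 1 by limma-voom and 0 to 2 leaving out a replicate. The difference in the summed share ranged from -0.113 to 0.0157 percentage points leaving out a replicate, positive without control replicate 1. Replicates differed by over 1.5-fold for 7 genes, against 4 by over 2-fold. Over 27 named genes and 297 comparisons, 274 kept direction and side of the threshold, 18 reversed and 5 newly passed: Rpl26 and Rps27a without cKO replicate 1, Rpl10 and Trabd2b by DESeq2, and Trabd2b without cKO replicate 2. The reversals were, with copies summed, Rpl26 (-0.13) and Rpl30 (-0.084), and by library sizes alone, Rpl22l1 (0.053), Rpl7l1 (0.028) and Rpl39 (0.013). Leaving out a replicate gave log2 fold changes on both sides of 0 for Rps27a (-0.17 to 1.43), Rpl30 (-0.45 to 1.41), Rpl7a (-0.069 to 0.43), Rpl3 (-0.097 to 0.38), Rpl21 (-0.61 to 0.045), Rpl22l1 (-0.077 to 0.056), Rps4l (-0.21 to 0.25), Rpl7l1 (-0.0797 to 0.0042), Rpl39 (-0.13 to 0.026) and Rpl23a (-0.077 to 0.12). The labels do not say that replicate numbers pair the libraries, and over all genes the differences between replicates 1 and 2 in control and in cKO were weakly and negatively correlated (r = -0.113 over 12093 genes), although replicate 1 had the higher median of the ribosomal protein genes in each group, so the block is an alternative only; with the replicate block 0 ribosomal protein genes were called in either direction, and with the numbers crossed, added after seeing the data, 0 as well.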
